A study of Homo sapiens with 6 samples.

Results

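The 81 genes described here encode proteins of the cytosolic ribosome or their close paralogs. They are the rows of a table of 16199 genes whose symbol is RPS or RPL with a number and an optional A, X or L ending, together with RPLP0, RPLP1, RPLP2 and RPSA. The pattern leaves out pseudogenes and the RPS6K kinases. Of the 81, 29 belong to the small (40S) subunit and 52 to the large (60S) subunit. All 81 matched GENCODE release 29 on GRCh38, where they lie on 21 chromosomes, with 12 on chromosome 19 and 9 on chromosome 3. RPS18, RPS25 and RPL10L are not analysed here.

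The RNA came from the H1 line of human embryonic stem cells, an established pluripotent line, as 6 libraries: 2 of wild-type cells, 2 of cells hemizygous and 2 of cells homozygous for DICER1 S1344L, a cancer hotspot substitution put in with CRISPR-Cas9. DICER1 is the ribonuclease that cuts precursor hairpins into mature microRNAs. The sample descriptions code the hemizygous libraries as pmfs and the homozygous ones as pmpm. The labels do not spell out the second allele of the hemizygous cells or name clones. They also do not say whether the 2 libraries of a genotype are separate cultures. Every p-value therefore measures the spread between these libraries, which may be technical. Counts per gene do not show the edited codon, so the genotypes rest on the labels. Levels are given as CPM, a gene's counts scaled to a common library size after TMM normalization, which adjusts library totals for composition. Values for a genotype are given for the library numbered 1 and then the library numbered 2.

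Each library held 38164848 to 52924532 counts. The 10 pluripotency markers on the list, POU5F1, SOX2 and NANOG among them, were all in the table. They summed to 6735.3 and 6739.7 CPM in wild-type, 7964.5 and 7489.5 in hemizygous, and 7642.0 and 7195.1 in homozygous libraries. Of 9 fibroblast and mesenchyme markers, 6 were measured. They summed to 1118.7 and 954.6 CPM in wild-type, 1057.6 and 878.2 in hemizygous, and 779.8 and 848.3 in homozygous libraries. Of these, COL1A1 was at 178.7 to 323.5 CPM, while DCN, LUM and COL3A1 were not among the measured genes. Neural markers, 4 of 6 measured, summed to 34.3 and 29.9, 60.9 and 75.8, and 42.9 and 42.2 CPM in the same order. Of 8 mesoderm and endoderm markers, 2 were measured, with sums of 260.2 and 276.8, 335.5 and 395.0, and 378.8 and 362.6 CPM. Neural, mesoderm and endoderm, and pluripotency sums were higher in all 4 edited libraries than in both wild-type libraries. The mesoderm and endoderm sum was nearly all KDR (257.1 and 275.5 CPM in wild-type libraries), and MIXL1 was highest in wild-type library 1 (3.07 CPM). Among neural markers ZIC1 and DCX were higher in all 4 edited libraries, while TUBB3 and MAP2 were not. Of the 10 pluripotency markers, 8 had a log2 fold change above 0 in hemizygous and 7 in homozygous cells. The part of these cell type markers in the differences between libraries was not tested. In bulk RNA, fewer cells of a type and less RNA per cell cannot be told apart.

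Ribosomal protein mRNAs are among the most abundant messages of a growing cell. One copy of nearly every protein enters each ribosome, and unassembled surplus protein is degraded. Most of these mRNAs begin with a 5′ terminal oligopyrimidine tract, a C at the first transcribed base followed by a run of pyrimidines. Through that tract the mTOR pathway and LARP1 control their translation and stability as a group. A few genes have paralogs, such as RPL22L1 for RPL22, whose protein can take the place of the parent in the ribosome.

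The start sequences show which members have such a run exactly at an annotated start. RefSeq start windows (GRCh38.p14) were matched for 65 of the 81 genes. A start was counted as having a tract where the first transcribed base was C and the next 4 or more bases were C or T on the transcribed strand. By this rule 45 of the 65 genes (69.2%) had at least 1 such start. Counted by window, 45 of 81 member windows (55.6%) began with a tract, against 1429 of 35116 windows of all RefSeq genes in the table of starts (4.07%). Start windows of mitochondrial ribosomal protein genes had it in 4 of 79 (5.06%). Each line below gives 15 bases before the start and 15 bases from the start onward, 5′ to 3′ on the transcribed strand, with the pyrimidine run that opens the transcript in capitals. RPLP2, RPS19 and RPL13 differed between replicate numbers. RPL22, RPL22L1, RPL7L1, RPS27 and RPS27L are paralogs or their parents, described further on.
RPLP2, chr11:809952-809981, plus strand: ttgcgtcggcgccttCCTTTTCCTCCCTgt
RPS19, chr19:41860240-41860269, plus strand: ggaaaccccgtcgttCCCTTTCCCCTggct
RPL13, chr16:89560667-89560696, plus strand: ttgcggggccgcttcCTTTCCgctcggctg
RPL22, chr1:6199581-6199610, minus strand: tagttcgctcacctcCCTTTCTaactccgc
RPL22L1, chr3:170870181-170870210, minus strand: cgcggccgtagcttcCTCTCTgctctcgcg
RPS27, chr1:153990747-153990776, plus strand: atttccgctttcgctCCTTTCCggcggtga
RPS27L, chr15:63157463-63157492, minus strand: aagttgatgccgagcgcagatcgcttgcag
RPL7L1, chr6:42879601-42879630, plus strand: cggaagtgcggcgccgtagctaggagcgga

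The windows of RPLP2 and RPS19 open with long runs, and those of RPL22 and RPL22L1 with shorter ones. The RPS27L and RPL7L1 windows have no C at the annotated start. A missing run says only that these letters are not at that RefSeq start, and RPL13 has other annotated starts without one. In RPL10A and RPL4, counted as without a tract, a pyrimidine run begins a few bases after the annotated start.

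In wild-type cells the members spanned a wide range of levels. Per kilobase of principal transcript, the highest wild-type levels were those of RPS2 (1988.6 CPM per kb), which lines the mRNA entry channel of the small subunit, RPL12 (1944.2), of the base of the stalk, and RPS24 (1718.9). The order depends on the length used: with the union of all annotated exons RPL12 ranked 10 and RPS24 ranked 51 of 81. RPS2 gave 1756.2 and 2161.3 CPM in wild-type, 1559.7 and 2184.5 in hemizygous, and 2120.8 and 2251.7 in homozygous libraries. RPL12 gave 1132.6 and 1328.8, then 919.2 and 1468.7, then 1358.5 and 1575.9 CPM in the same order. Both genes were lowest in hemizygous library 1 and highest in homozygous library 2.

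**Figure D1:**
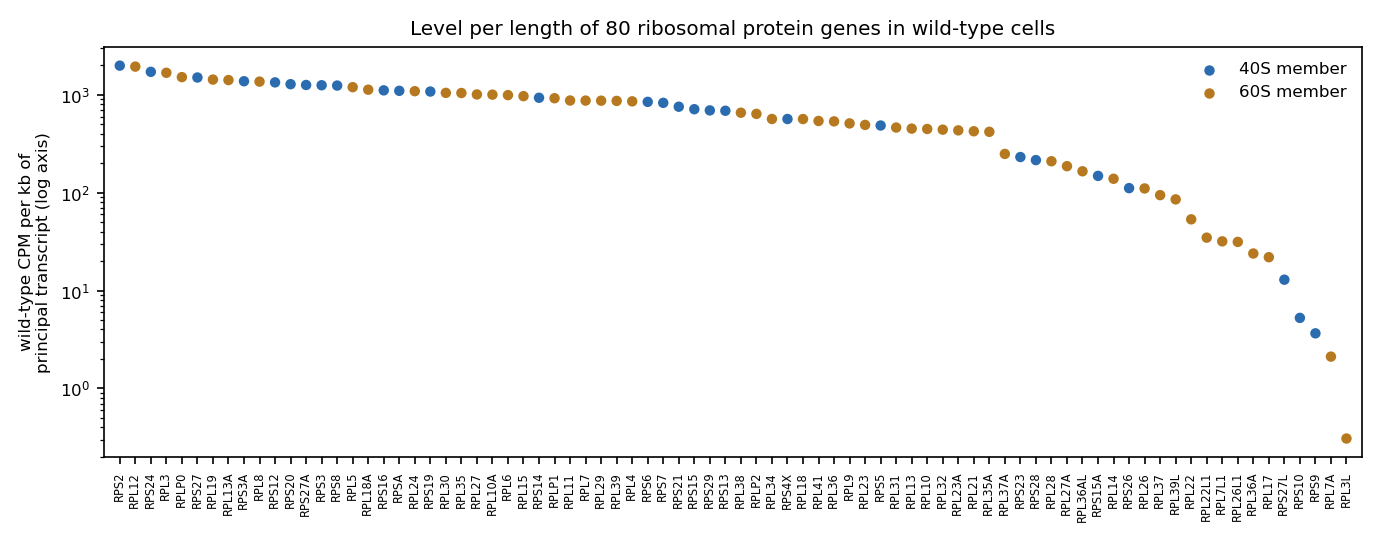
Wild-type level of 80 of the 81 genes, as CPM per kilobase of principal transcript on a log axis, ordered from high to low; blue points are 40S and brown points 60S members. RPS2, RPL12 and RPS24 lead at 1718.9 to 1988.6, and RPS9, RPL7A and RPL3L close the row at 3.65, 2.11 and 0.307.

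Of the 81 genes, 75 had a mean of at least 20 CPM and 6 did not: RPL17, RPL36A, RPS10, RPS9, RPL7A and RPL3L. RPL3L, a muscle paralog of RPL3, gave 0.443 and 0.895 CPM in wild-type, 0.574 and 0.892 in hemizygous, and 0.33 and 0.812 in homozygous libraries. RPL3 itself was at 1962.8 to 2823.5 CPM. RPL3L therefore lay near the floor of the deposited table, in which every gene exceeds 0.5 CPM in at least 3 libraries. RPL7A, RPS9, RPS10 and RPL17 encode core proteins of the ribosome, yet RPL7A was at 1.36 to 2.41 CPM and RPS9 at 1.98 to 3.1 CPM. RPS10 was at 3.25 to 5.32 CPM and shares 39.4% of its exon bases with the readthrough gene RPS10-NUDT3. RPL17 was at 13.5 to 17.9 CPM and shares 24.8% with RPL17-C18orf32. RPL36A, also among the 6, was at 10.2 to 14.4 CPM. The program that assigned reads to genes is not given in the sources used here, and its part in these low counts was not tested.

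As a group the members took 5.25% and 6.07% of all counts in wild-type, 4.55% and 6.48% in hemizygous, and 5.87% and 6.82% in homozygous libraries. The means were 5.66% ± 0.584 (SD, n = 2), 5.52% ± 1.37 and 6.34% ± 0.669. The ranges of all 3 genotypes overlap, and the hemizygous libraries enclose the wild-type pair. Hemizygous cells differed from wild type by -0.14 percentage points and homozygous cells by 0.68, and homozygous from hemizygous cells by 0.83. The two-sided exact permutation p was 1.0, 0.667 and 0.667 (adjusted over the 3 comparisons, 1.0 each). With 2 libraries against 2 the smallest p this test can give is 0.333, and it does not use the replicate numbers. Between libraries of the same number, homozygous cells were above wild type by 0.62 and 0.74 percentage points. Hemizygous cells differed from wild type by -0.69 and 0.41, and homozygous from hemizygous cells by 1.32 and 0.33. The homozygous difference from wild type was 0.21 without homozygous library 2 and 1.16 without homozygous library 1.

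The subunits moved together between libraries. The 40S members took 1.91% and 2.2% in wild-type, 1.68% and 2.34% in hemizygous, and 2.15% and 2.51% in homozygous libraries. The 60S members took 3.34% and 3.87%, 2.87% and 4.14%, and 3.72% and 4.31%. Both were lowest in hemizygous library 1 and highest in homozygous library 2. The 96 ribosomal protein pseudogenes of the table had the same lowest and highest library, with 0.142% and 0.193% of counts. Reads of a processed pseudogene and its parent gene can be hard to tell apart, so the pseudogene counts are uncertain. The 72 mitochondrial ribosomal protein genes were likewise lowest in hemizygous library 1 (0.345%) and highest in homozygous library 2 (0.404%). Genes of the mitochondrial genome took 7.32% and 6.72%, 7.62% and 6.79%, and 6.59% and 7.91%. They were also highest in homozygous library 2 but lowest in homozygous library 1.

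Most of the spread of the median member was a shift that the members of a library shared. The median member lay 0.28 below its 6-library mean of log2 CPM in hemizygous library 1 (median deviation -0.28) and 0.21 above it in homozygous library 2. The other four libraries had medians of -0.12 and 0.03 (wild type 1 and 2), 0.12 (hemizygous 2) and 0.03 (homozygous 1). Relative to hemizygous library 1, the median member was 1.12-fold and 1.24-fold higher in the wild-type libraries, 1.32-fold in hemizygous library 2, and 1.24-fold and 1.41-fold in the homozygous libraries. Hemizygous library 1 held the lowest value of 69 of the 81 genes and homozygous library 2 the highest value of 65. Across the 6 libraries the median member had an SD of 0.185 in log2 CPM. After each library's median deviation was removed it was 0.072. In some members the SD rose instead, as in RPL10A (0.07 to 0.19) and RPL22 (0.09 to 0.22), which varied little between libraries.

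**Figure D2:**
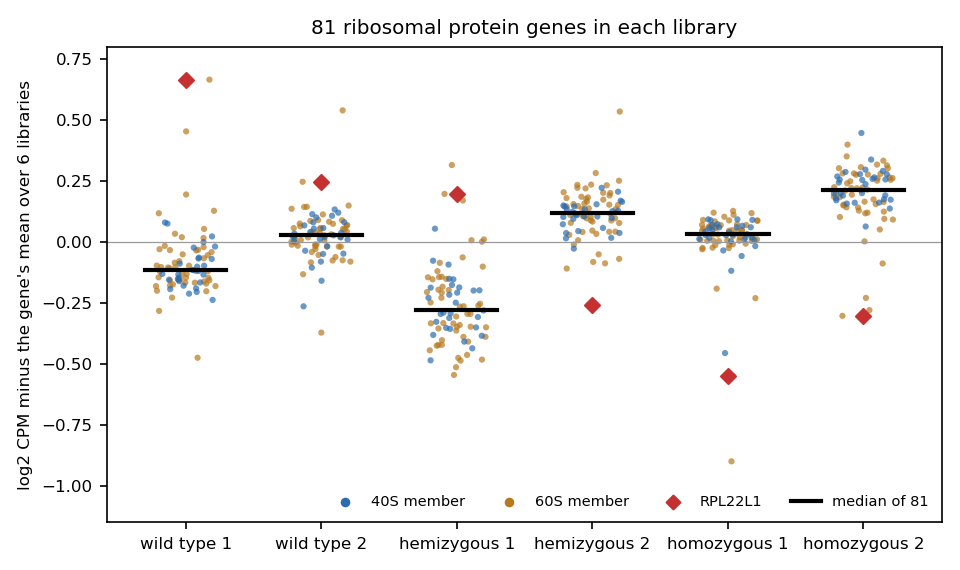
Log2 CPM of each of the 81 members minus that gene's mean over the 6 libraries (vertical axis) in each library (horizontal axis); points are genes, black bars are library medians and red diamonds are RPL22L1. Medians run from -0.28 in hemizygous 1 to 0.21 in homozygous 2, and RPL22L1 lies above the median in the wild-type libraries and hemizygous 1 and below it in hemizygous 2 and both homozygous libraries.

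RPS23, a decoding-centre protein, followed the library median most closely, with a remaining SD of 0.02 in log2 CPM. It gave 751.9 and 839.1, 677.7 and 898.7, and 830.7 and 974.9 CPM. RPL11, RPL9, RPL27, RPL31, RPS3, RPS7 and RPS20 had 0.03 each. RPL22L1 departed from the rest the most, with 0.57, followed by the low-count genes RPL3L (0.55) and RPL7A (0.48), and then by RPL7L1 (0.33), RPS9 (0.28) and RPL22 (0.22). The RPL22 pair and RPL7L1 are well counted, with at least 1696 counts in every library.

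The first comparison asked whether hemizygous DICER1 S1344L cells differed from wild type. edgeR's quasi-likelihood test called 0 of 81 members at an adjusted p under 0.05 and 0 of 16199 genes (0.00%). At an unadjusted p under 0.05 it counted 0 members and 141 genes. DESeq2 and limma-voom called 0 members as well. The median log2 fold change of the members was -0.03, beside 0.00 for all genes, and 22 of 81 members were above 0. That median was 0.18 without hemizygous library 1 and -0.25 without hemizygous library 2, so its sign rests on which of these libraries is kept; it was -0.09 and 0.06 without wild-type library 1 or 2.

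In 2 members both hemizygous libraries were above both wild-type libraries, against 8.13% of all genes. They were RPS10 and RPL36A, both under 20 CPM. RPS10 gave 3.51 and 3.25 CPM in wild-type and 3.7 and 4.19 in hemizygous libraries. RPL36A gave 10.2 and 10.3 against 11.3 and 10.9 CPM. The 2 members with both hemizygous libraries below both wild-type libraries were RPL22L1 and RPL26, against 9.21% of genes. RPL26 gave 63.9 and 65.3 in wild-type and 59.2 and 61.6 CPM in hemizygous libraries. RPL17 and RPL10 had among the lowest fitted values of the comparison, but overlapping groups: RPL10, a late-joining 60S protein, gave 763.1 and 850.2 against 646.6 and 843.5 CPM. RPL17 gave 17.6 and 16.1 against 13.5 and 16.3 CPM.

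In homozygous against wild-type cells most members had small positive values, and none passed the test. The median log2 fold change was 0.17 beside 0.00 for all genes, and 74 of 81 members were above 0. edgeR called 0 of 81 members and 0.00% of all genes, and DESeq2 and limma-voom called 0 members. The unadjusted p was under 0.05 for 1 member, RPL22L1, and for 435 genes. Leaving out any 1 library gave a member median between 0.08 and 0.26. In 37 members (45.7%) both homozygous libraries were above both wild-type libraries, against 14.2% of all genes. Members vary together from library to library, so these 37 are not 37 separate observations. In 1 member, RPL22L1, both were below, against 13.6% of all genes.

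RPS10 and RPL36A had the largest positive values. RPL36A gave 10.2 and 10.3 against 11.1 and 14.4 CPM, a log2 fold change of 0.32 ± 0.19 (SE; edgeR adjusted p = 1.0), and this was 0.12 without homozygous library 2. RPS10 gave 3.51 and 3.25 against 3.75 and 5.32 CPM, a log2 fold change of 0.42 ± 0.26 (edgeR adjusted p = 1.0), and 0.15 without homozygous library 2. Both low-count genes owe most of their value to that library. RPL7A, at 2.41 and 1.36 against 1.5 and 1.45 CPM, overlapped.

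In homozygous against hemizygous cells edgeR called 0 of 81 members and 0.00% of all genes, with 0 members and 124 genes at an unadjusted p under 0.05. With the replicate number as a block, edgeR also called 0 members but counted 13 at that unadjusted level. The count over all genes in the blocked fit is not given, and the 124 genes belong to the fit without a block. DESeq2 and limma-voom also called 0 members. The member median was 0.20 beside 0.00 for all genes, and 76 of 81 were above 0. Without hemizygous library 1 it was 0.00, with 42 of 81 above 0, and without hemizygous library 2 it was 0.41. RPLP2 had a log2 fold change of 0.33 ± 0.24 (SE), RPS19 0.31 ± 0.22 and RPL13 0.31 ± 0.26 (edgeR adjusted p = 0.999 each). Without hemizygous library 1 the same 3 values were 0.05, 0.05 and 0.01. Both homozygous libraries were above both hemizygous libraries in 5 members, RPL17, RPL26, RPL36AL, RPS15A and RPS29, against 11.0% of all genes. Both were below in RPL22L1 and RPL7A, against 10.4%. This comparison and the homozygous comparison with wild type share the homozygous libraries.

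**Figure D3:**
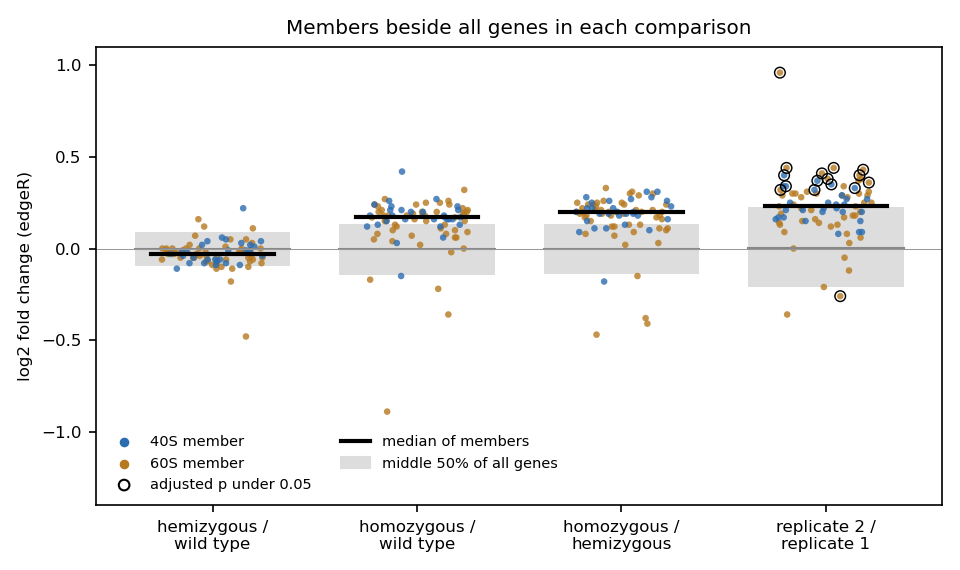
Log2 fold change of each of the 81 members (points; blue 40S, brown 60S) in the 3 genotype comparisons and between replicate numbers, with the median of the members (black bar) and the middle 50% of all genes (grey). Circled points have an adjusted p under 0.05, and they occur only between replicate numbers; member medians are -0.03, 0.17, 0.20 and 0.23 from left to right.

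RPL22L1, the paralog of the 60S protein RPL22, and RPL26 were the 2 members whose libraries did not overlap between any of the 3 genotypes. The share of all genes that separate all 3 genotypes was not counted, so these 2 cannot be set beside it. RPL22L1 was ordered wild type, hemizygous, homozygous from high to low, and RPL26 homozygous, wild type, hemizygous. RPL22L1 is on chromosome 3 (170864875 to 170870483, minus strand, GRCh38), and RPL22 is on chromosome 1 (6185020 to 6209389, minus strand). RPL22 is known to bind and restrain the RPL22L1 transcript. RPL22L1 gave 86.9 and 65.0 CPM in wild-type, 62.8 and 45.8 in hemizygous, and 37.4 and 44.4 in homozygous libraries. Both wild-type values lie above both hemizygous values, which in turn lie above both homozygous values, although hemizygous 2 and homozygous 2 differ by little. The log2 fold change was -0.48 ± 0.22 (SE) in hemizygous and -0.89 ± 0.22 in homozygous cells against wild type, and -0.41 ± 0.22 between the edited genotypes. Unadjusted p was 0.0625, 0.00514 and 0.104, and the edgeR adjusted p was 1.0, 1.0 and 0.999, so RPL22L1 did not pass in any of the 3 comparisons.

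The size of the homozygous difference of RPL22L1 was alike in every model fitted to all 6 libraries, -0.90 to -0.87, while its adjusted p differed. With the replicate number as a block edgeR gave -0.87 (adjusted p = 0.316). DESeq2 with the same block, added after the data were seen, gave an adjusted p of 0.000326, and RPL22L1 was then the 1 member called lower, against 79 of 13686 genes (0.577%). DESeq2 without the block gave 0.244. Without any 1 library the log2 fold change ranged from -1.07 to -0.66. RPL22 gave 118.9 and 102.9, 109.6 and 100.9, and 112.4 and 109.0 CPM, with overlapping genotypes. RPL22L1 was thus 73.0% and 63.2% of the RPL22 count in wild-type, 57.3% and 45.4% in hemizygous, and 33.3% and 40.7% in homozygous libraries. Per kilobase of principal transcript, wild-type RPL22L1 was at 34.7 and RPL22 at 53.4 CPM per kb.

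Of the other genes in paralog pairs, only RPL26 separated the 3 genotypes. RPS27L, a p53 target that can replace RPS27, gave 90.0 and 76.5, 80.1 and 87.6, and 78.7 and 102.0 CPM. RPS27 gave 521.8 and 558.2, 506.5 and 601.9, and 573.3 and 689.5 CPM. RPL39L, known from the male germ line and also made in stem cells, gave 62.9 and 65.0, 57.2 and 65.7, and 55.7 and 77.3 CPM. Its parent RPL39, at the nascent peptide exit tunnel, gave 343.8 and 351.5, 328.3 and 375.5, and 357.2 and 441.5 CPM. RPL39L was 15.6% to 18.5% of RPL39 in every library.

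RPL36AL gave 119.6 and 127.3, 118.5 and 134.0, and 137.3 and 151.8 CPM. It had the higher measured level of its pair, at 165.5 CPM per kb in wild-type cells against 23.9 for RPL36A. RPL36A is among the low-count members, and the part of read assignment in its low count was not tested. RPL26L1 gave 22.6 and 21.9, 20.9 and 22.9, and 22.7 and 28.0 CPM. RPL26 gave 63.9 and 65.3, 59.2 and 61.6, and 71.5 and 72.2 CPM, without overlap, and the homozygous log2 fold change against wild type was 0.15. RPL7L1, a nucleolar relative of RPL7, gave 143.3 and 118.8, 140.9 and 118.3, and 127.0 and 106.8 CPM, the lower value always in library 2. RPL7 gave 975.6 and 948.4, 933.1 and 1059.3, and 1002.7 and 1025.8 CPM.

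**Figure D4:**
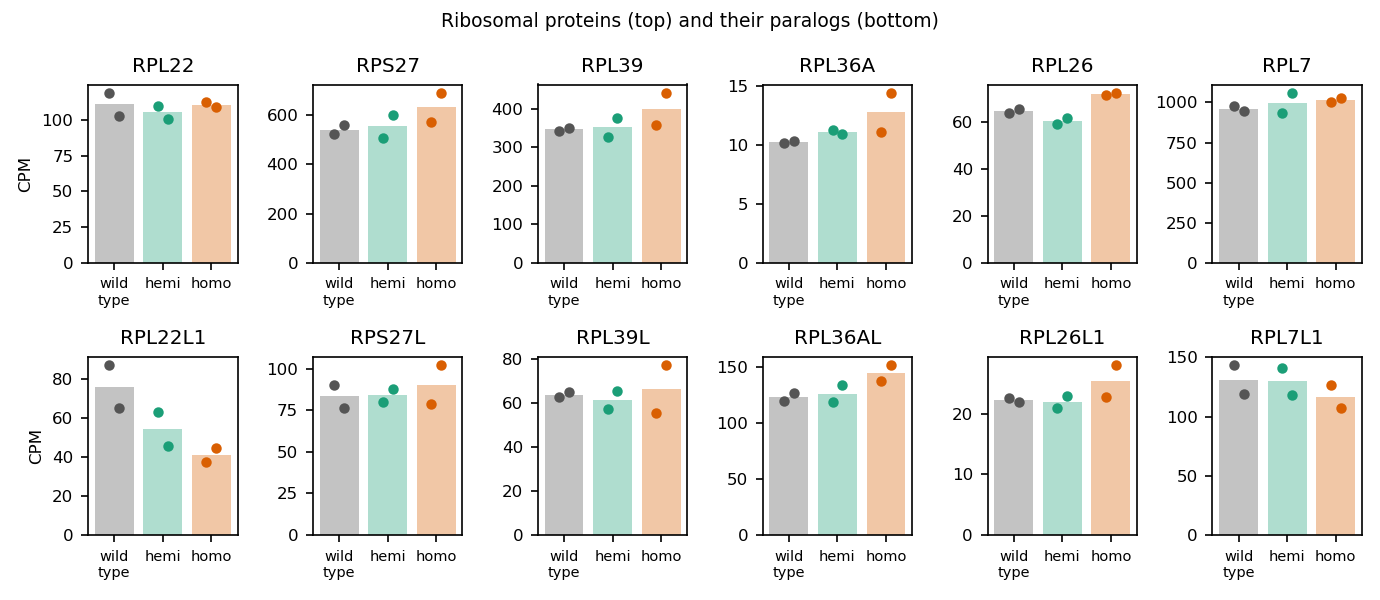
CPM of 6 ribosomal protein genes (top row) and their paralogs (bottom row) by genotype; points are libraries, bars are means of 2, and each panel has its own axis from 0. RPL22L1 runs from 86.9 and 65.0 in wild-type to 37.4 and 44.4 in homozygous libraries, and RPL22 overlaps between genotypes.

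The test called members between replicate numbers but not between genotypes. Libraries numbered 2 were compared with those numbered 1 with genotype in the model. The labels do not say what the number marks. edgeR called 15 members higher in the libraries numbered 2 (18.5%, against 8.50% of all genes) and 1 lower (1.23%, against 12.0%). The median log2 difference of the members was 0.23 beside 0.00 for all genes, and 75 of 81 were above 0. Within genotypes, 62 of 81 members were higher in library 2 of wild-type cells (median 0.14), 75 in hemizygous (0.40) and 76 in homozygous cells (0.18). In 60 members (74.1%) the value was higher in library 2 in all 3 genotypes, against 28.3% of all genes.

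The number of calls depended on which libraries were kept, among the members and over the whole table. With all libraries 16 members and 3322 genes were called. Without hemizygous library 1 or 2, 0 members were called, with 1 and 3 genes in all. At an unadjusted p under 0.05 those fits still counted some members, but the share of all genes at that level is not given. Without wild-type library 1 or 2 the member counts were 3 and 2 (1140 and 1077 genes), and without either homozygous library 40 (6266 and 6254 genes). The median stayed above 0 in each of these fits, between 0.16 and 0.30. With library size as the only scaling the median of all genes was 0.07 and that of the members 0.30.

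**Figure D5:**
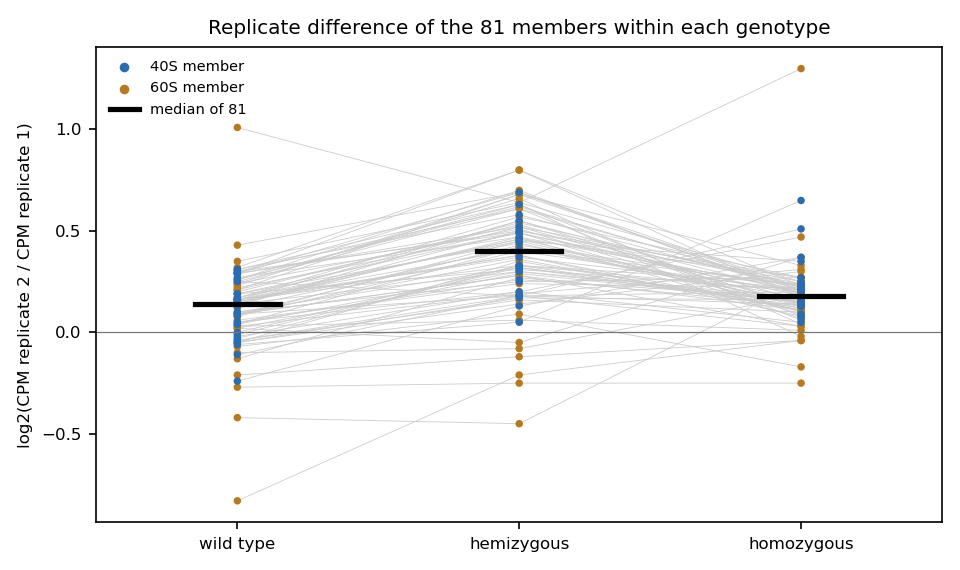
Log2 ratio of CPM in library 2 over library 1 for each of the 81 members (points, joined by grey lines) within each genotype; black bars are medians. The medians are 0.14, 0.40 and 0.18, and most members lie above 0 in each genotype.

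The called 60S members include RPLP2, an acidic protein of the stalk that recruits elongation factors. RPLP2 gave 399.0 and 507.0, 328.5 and 510.3, and 481.4 and 571.9 CPM, a log2 difference of 0.41 ± 0.09 (SE; edgeR adjusted p = 0.0275). Its partners RPLP1 (1041.4 and 1169.4, 853.7 and 1263.4, 1109.1 and 1340.8 CPM) and RPLP0 (1842.2 and 1972.6, 1618.0 and 2015.6, 1900.7 and 2061.1 CPM) were also higher in each library 2 without passing (edgeR adjusted p = 0.0509 and 0.174). RPL13 gave 917.5 and 1237.8, 796.5 and 1285.6, and 1205.6 and 1376.4 CPM, a difference of 0.44 ± 0.11 (edgeR adjusted p = 0.0318). RPL35, near the exit tunnel, had 0.44, RPL24 0.40 and RPL27A 0.38. RPL29, RPL38 and RPL36 complete the well-counted 60S calls and were named after their values were seen. RPL3L had the largest difference, 0.96 ± 0.26, at 15 counts in its lowest library.

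The called 40S members include RPS16, RPS14, RPS21, RPS19 and RPS28. RPS19, needed for maturation of 18S rRNA and the gene most often mutated in Diamond-Blackfan anaemia, gave 644.3 and 800.1, 548.9 and 821.7, and 790.0 and 912.2 CPM. The difference was 0.37 ± 0.09 (SE; edgeR adjusted p = 0.0361). RPS14, lost in the 5q- syndrome, gave 547.2 and 670.4, 496.5 and 701.4, and 655.3 and 773.4 CPM, a difference of 0.34 (edgeR adjusted p = 0.0316). RPS28 had 0.40, RPS16 0.35 and RPS21 0.33. All 29 of the 40S members were above 0 in this comparison. RPL7L1 was the call in the other direction, at -0.26 ± 0.07 (edgeR adjusted p = 0.0422), and this was -0.19 (adjusted p = 0.0892) with library size as the only scaling and -0.22 (adjusted p = 0.0549) over genes with a mean of at least 5 CPM.

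Members with well-known roles outside bulk protein synthesis followed the library pattern without passing the test. RPL5 and RPL11, which with 5S rRNA bind MDM2, gave 1256.2 and 1276.0, 1114.8 and 1367.1, and 1290.7 and 1429.3 CPM, and 841.5 and 938.9, 751.1 and 1033.7, and 951.7 and 1048.0 CPM. RPS6, the substrate of the S6 kinases, gave 1188.4 and 1163.6, 1027.3 and 1294.5, and 1228.4 and 1346.6 CPM. RPSA, also known as the laminin receptor, gave 1225.8 and 1349.6, 1072.1 and 1481.5, and 1419.4 and 1488.1 CPM. RPS4X, an X-linked 40S protein, gave 823.4 and 905.2, 783.4 and 964.1, and 895.6 and 994.2 CPM. In each of these 5 genes hemizygous library 1 was the lowest of the 6 and homozygous library 2 the highest. Of 19 Diamond-Blackfan anaemia genes on the list, 18 were measured and all 18 had a positive value in homozygous against wild-type cells (median 0.19), with 0 called. All 18 are members, of which 74 of 81 were positive (median 0.17), beside 7982 of 16199 genes.

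Lists for other steps of ribosome production did not share one direction, and some went with the members. FAU and RACK1 encode ribosomal proteins outside the symbol pattern, and both were above 0 in homozygous against wild-type cells (0.22 and 0.11). FAU gave 110.3 and 143.0, 98.9 and 133.3, and 136.9 and 158.6 CPM, and was called higher in the libraries numbered 2 (0.34, edgeR adjusted p = 0.0274). RACK1 gave 1393.5 and 1543.3, 1270.9 and 1606.4, and 1569.4 and 1598.9 CPM and did not pass (0.17, edgeR adjusted p = 0.206). Of 22 other translation genes known for a terminal oligopyrimidine tract, 20 were measured, with medians of 0.07 in homozygous against wild-type cells and 0.02 between replicate numbers, 1 called higher and 2 lower between replicate numbers. The 15 measured of 16 small nucleolar RNA host genes had medians of 0.08 and 0.16 in the same order. Between replicate numbers 2 of them were called higher and 1 lower. Of 51 ribosome biogenesis factors, 50 were measured, with medians of 0.06 and -0.09, and 11 were called lower and 0 higher in the libraries numbered 2. Of 15 RNA polymerase I genes and factors, which make rRNA, 13 were measured, with medians of -0.06 and -0.27, 6 called lower and 1 higher. Of 19 growth control genes, 18 were measured, with medians of -0.13 and -0.18, 4 called lower and 1 higher between replicate numbers. The 4 were LARP4 (-0.45, edgeR adjusted p = 0.0183), MTOR (-0.41, 0.0218), RPS6KB1 (-0.36, 0.0225) and MYC (-0.34, 0.0377). EIF4EBP1, a translation repressor that mTOR inactivates, was called higher (0.29, edgeR adjusted p = 0.0333). Over all genes, 12.0% were called lower and 8.50% higher in the libraries numbered 2, and the number of calls depended on the libraries kept. None of these lists had a gene called between genotypes by edgeR, and the difference between lists was not tested.

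Members with and without a pyrimidine run at the start had similar medians. With a run (45 genes) the median was 0.18 in homozygous against wild-type cells and 0.25 between replicate numbers. Without one (20 genes with a RefSeq start) it was 0.16 and 0.19. Some genes without a run at the annotated start, such as RPL10A and RPL4, have one a few bases after it. The classes may therefore not differ in having a tract, and the difference between them was not tested.

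Transcript length moved with the same comparisons. Among 593 other genes with a principal transcript of 1000 bases or less, the median was 0.08 in homozygous against wild-type cells, 0.13 in homozygous against hemizygous cells and 0.20 between replicate numbers, where 484 were above 0, 109 were called higher and 2 lower. The 43 members this short had medians of 0.19, 0.20 and 0.24. Among 32 other short genes at 200 CPM or more, the medians were 0.06 in all 3 comparisons. Among 795 other genes of any length at that level they were -0.01, -0.03 and -0.10. The 72 mitochondrial ribosomal protein genes had medians of 0.01, 0.07 and 0.06, and the 96 pseudogenes 0.14, 0.14 and 0.19. The part of transcript length in the members' differences was not tested.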

How the data were processed

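The authors deposited raw counts per gene for 6 RNA-seq libraries, whole numbers with no normalization. Libraries were made from total RNA with an Illumina TruSeq RNA kit that does not mark strand, per the labels' protocols, so overlapping genes on opposite strands, such as RPL10 and DNASE1L1 (34.2% of RPL10 exon bases), cannot be told apart. Per the submitters' processing notes, cutadapt, HISAT2 and the hg38 build were used. Neither the counting program nor its annotation is given in these sources.

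Here, edgeR 4.0.16 (R 4.3.3; TMM, quasi-likelihood test, genotype model, 3 residual degrees of freedom) was fitted to all 16199 genes, with Benjamini-Hochberg adjustment over all of them and a threshold of 0.05. The replicate comparison had 2 residual degrees of freedom. CPM used TMM-scaled totals. Counting precision is a lower limit on error, since reads carry no molecular identifiers. Chi-square per degree of freedom between replicates was 60.3, 90.3 and 41.7, so no library was a copy. Deviations of same-numbered libraries from genotype means correlated at 0.741, 0.357 and 0.476. The numbers in the titles were treated as a pairing in the replicate block and in differences between same-numbered libraries. The main genotype fit used no pairing, because the labels do not say what the number marks. Alternatives were DESeq2 1.42.0, limma-voom (limma 3.58.1), RLE scaling, library size only, TMM without the members, a mean of at least 5 CPM, the replicate block and leaving out each library. The main edgeR fits of homozygous against wild-type cells and of the replicate comparison were tested on simulated data. The alternatives and the other comparisons were not. Genes were simulated independently, without the shift that the members of a library shared.

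The members and lists were chosen with earlier results of these data known. Genes named by rule were 10 well-known members, the paralog pairs, called members (up to 10, by p), and the 3 highest and 3 lowest members in each comparison and in level per length. Sequences are from RefSeq (GRCh38.p14), positions from GENCODE 29. Results for some genes are not reported here.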

Additional observations from a re-analysis of the deposited data

How the results depend on the processing

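The replicate block in edgeR left 0 members called in each genotype comparison, as did DESeq2 without it and limma-voom. Member medians with the block were -0.04, 0.17 and 0.20 in the order of the report's 3 genotype comparisons. At an unadjusted p under 0.05, edgeR with the block counted 1, 4 and 13 members in that order, and DESeq2 with it 1, 11 and 25. Members vary together, and counts over all genes at that level are not given for these fits. The one genotype call came from DESeq2 with the replicate block, which called 1 member (RPL22L1) in homozygous against wild-type cells; the cause was not tested. Leaving out 1 library moved the hemizygous median over -0.25 to 0.18, the homozygous against hemizygous median over 0.00 to 0.41, the hemizygous share difference over -1.11 to 0.82 percentage points, the homozygous against hemizygous share difference over -0.14 to 1.79 and the homozygous against wild-type one over 0.21 to 1.16. Between replicate numbers, 16 members and 3322 genes were called; this was 33 (3299 genes) with library size only, 38 (3182) with DESeq2, 29 (2846) with a mean of at least 5 CPM, and 0 to 40 (1 to 6266) when 1 library was left out. Of the 16, the calls kept were 16 with RLE scaling and with limma-voom, 15 with library size only and with DESeq2, and 14 with the filter. Medians kept their sign under every scaling tried. With 2 libraries per genotype, a pooled SD of 0.19 in the library median limits what can be seen.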

Other observations

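Genes of the lists that are not ribosomal proteins had 1 library far from the rest, noticed after the values were seen. EEF1B2, a subunit of the elongation factor complex, gave 4.69 and 65.0 CPM in wild-type, 3.99 and 2.56 in hemizygous, and 2.25 and 2.31 in homozygous libraries. FBL, the methyltransferase fibrillarin of box C/D small nucleolar ribonucleoproteins, gave 3.18 and 20.6, 3.13 and 1.52, and 1.34 and 1.3 CPM. In both genes wild-type library 2 was the highest of the 6. The low-count members RPL7A and RPS9 were not high there, at 1.36 and 2.76 CPM. DDX21, a nucleolar helicase, gave 614.5 and 398.4, 646.8 and 379.4, and 566.3 and 340.4 CPM, and was called lower in the libraries numbered 2 (log2 difference -0.71, edgeR adjusted p = 0.012).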
